A study of Mus musculus with 3 samples.

Results

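*Pou5f1* (the gene of *Oct4*), *Sox2* and 4 genes known as joint targets of their proteins, *Utf1*, *Fgf4*, *Fbxo15* and *Spp1*, were followed across 3 RNA-seq libraries of mouse embryonic stem cells (ESCs). The members were taken by their gene symbol, and all 6 were found among the 23953 genes of the tables. The cells were E14 ESCs, a mouse line kept undifferentiated with LIF and serum, and each condition had 1 library. The first library was labelled WT, and the sources used here do not say if its cells were parental E14 or floxed cells left untreated. The other libraries came from *Oct4* DE (−/−) cells, an expanded clone in which both copies of the distal enhancer (DE) of *Oct4* lie between loxP sites and which carries CreERT2, rtTA and a TRE-driven mouse *Oct4* transgene. The library labelled Tam had received 4-OH tamoxifen for 48 h, which lets CreERT2 cut out the sequence between the loxP sites. The library labelled DoxTam had received 4-OH tamoxifen together with doxycycline for 48 h, and doxycycline switches on the transgene. Replicates are lacking, so values and folds are described and no p-value is given. A difference in RNA per cell and a difference in the share of cells that express a gene cannot be told apart in such bulk samples.

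OCT4 is a POU factor and SOX2 is an HMG-box factor. They bind DNA side by side in undifferentiated ESCs, where the SOX motif and the POU motif of a composite element are read by a complex of both proteins. The pair sustains its own genes through such elements, and it drives genes that mark the inner cell mass and the naive stem cell. *Utf1* encodes a chromatin factor of undifferentiated cells, *Fgf4* a secreted growth factor that signals through FGF receptors and ERK, *Fbxo15* an F-box protein that can join an SCF ubiquitin ligase, and *Spp1* the secreted matrix protein osteopontin.

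Composite elements are shown because genes of this kind are known for them, and because the one at *Pou5f1* lies in the part of the genome that tamoxifen was meant to remove. The search used the letters CNTTGT for the SOX motif and ATGC for the POU motif, in this order on either strand, with 1 to 4 bases between them, within 5 kb of the start of each gene. Each sequence is 30 bases of the mm9 genome written 5′ to 3′ on the strand of the match, with the SOX motif and the POU motif in capitals and the bases between them in lower case.
*Pou5f1*, chr17:35640988-35641017, minus strand: atcatgcacCTTTGTtATGCatctgccgtc
*Sox2*, chr3:34552962-34552991, plus strand: tcgggcagcCATTGTgATGCatataggatt
*Utf1*, chr7:147131574-147131603, minus strand: atgagccgtCATTGTtATGCtagtgaagtg
*Fgf4*, chr7:152050291-152050320, plus strand: agaaaactCTTTGTttggATGCtaatggga
*Spp1*, chr5:104861185-104861214, minus strand: ttttatccCATTGTtaaATGCcatagacaa

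In *Pou5f1*, *Sox2* and *Utf1* the motifs were 1 base apart, in *Spp1* 3 bases and in *Fgf4* 4 bases. The match of *Pou5f1* lay upstream of the gene, 1974 bp before its start. The match of *Sox2* lay downstream of its gene body, 4044 bp after the start. That of *Utf1* was also downstream of the gene, 1896 bp after its start. The match of *Fgf4* was inside the gene, in the 3′ UTR, 3008 bp after the start. The match of *Spp1* was 2931 bp upstream. *Fbxo15* had no match with these letters. With the last base of the POU motif left free, a search added after seeing the data, *Fbxo15* had 1 match 661 bp before its start, and its sequence is not shown. So 5 of the 6 genes had a match with the full letters, and 24.2% of the 22209 starts of protein-coding genes had such a match in a window of the same size. With the last base left free the share over all starts was 75.8%. The genes were chosen as joint targets, so the count is a description, and a match of letters does not show that a factor was bound.

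*Spp1* is known for an element in its first intron that binds OCT4 as a dimer, so the octamer ATGCAAAT, the full POU site, was searched in the same windows. It is shown here for *Spp1* with the octamer in capitals.
*Spp1*, chr5:104864990-104865019, plus strand: tcacatttgaaATGCAAATggaaaaagcaa

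This octamer lay in an intron of *Spp1*, 864 bp after the start. *Pou5f1* had 1 octamer in an exon 3946 bp after the start, *Utf1* had 1 at 819 bp upstream, and *Fbxo15* had 3, of which 1 was in an intron 795 bp after the start and 2 were at 3640 bp and 4138 bp upstream. *Sox2* and *Fgf4* had none in the window. Of all starts, 42.9% had an octamer within 5 kb.

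The element of *Pou5f1* was set beside the guides with which the study placed the loxP sites. The CR4 guide (CCCACACCCAGTTCCTCCCA) matched chr17:35640914-35640933 and the DE3' guide (CAGTCTGAGGATCCCATTAC) chr17:35641748-35641767, both on the minus strand of mm9. The composite match at 35640998 to 35641008 lay between them, 64 bases from the CR4 guide site and 739 bases from the DE3' guide site. Of the matches listed for the 6 genes, it is the one that lies between the guide sites. The RNA tables do not measure the deletion itself.

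**Figure D1:**
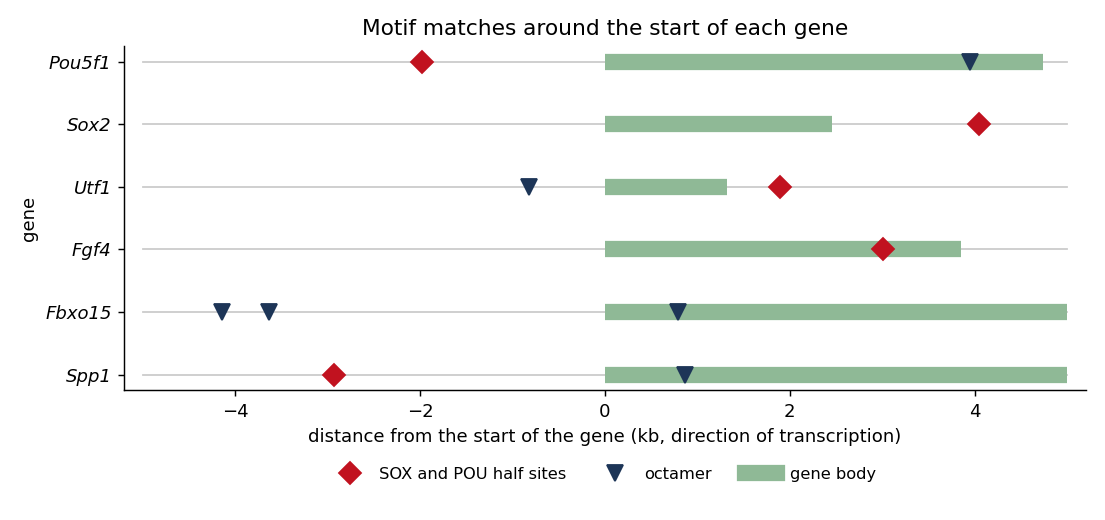
Motif matches within 5 kb of the start of each gene, drawn as distance from the start (x axis, kb, in the direction of transcription). Diamonds mark a SOX motif beside a POU motif with the full letters, triangles mark the octamer and green bars the gene body; 5 of the 6 genes have a diamond, at 1896 to 4044 bp from the start.

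All 6 genes are on the plus strand and code for protein. In the mm9 annotation *Pou5f1* spans chr17:35642982-35647721, *Sox2* chr3:34548927-34551383, *Utf1* chr7:147129688-147131011, *Fgf4* chr7:152047291-152051148, *Fbxo15* chr18:85104550-85150768 and *Spp1* chr5:104864137-104870069. *Sox2* lies inside the longer noncoding gene *Sox2ot* on the same strand. *Sox2ot* was at 1.52 FPKM in WT, 1.82 in Tam and 1.85 in DoxTam, all far under *Sox2*. FPKM counts fragments per kilobase of transcript, scaled to the mapped fragments of the library. It is a level per length, so levels of different genes can be set side by side.

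The libraries differed in depth. From the smallest levels above 0 of 1-transcript genes, the FPKM scale corresponded to about 12900000 fragments for WT, 6300000 for Tam and 7660000 for DoxTam. The mean level of olfactory receptor genes, which ESCs should lack, was 0.0718, 0.285 and 0.0616 FPKM in that order, against 38.2 FPKM or more for each of the 6 genes. ESC identity was checked with 8 markers, all at 1 FPKM or more in every library, and their summed level was 2060 FPKM in WT, 2010 in Tam and 2050 in DoxTam. The most abundant was *Dppa5a*, with 793 FPKM in WT, 657 in Tam and 633 in DoxTam. *Tdgf1* went the other way, with 429, 457 and 600 FPKM, so the sum over the 8 markers hides differences in opposite directions. *Tfcp2l1* was the only one past 1.5-fold, in Tam against WT (90.7 and 139 FPKM, log2 fold 0.61). It was inside that limit on the housekeeping scale (0.29) and with small RNA genes left out of the sum (0.56). The housekeeping scale equalises the median level of 9 housekeeping genes but not their folds, and 1 of the 9, *Hprt*, was under 1 FPKM in every library. On it their own median log2 folds were -0.24 in Tam and -0.23 in DoxTam against WT. Of 6 trophectoderm markers, 1 was at 1 FPKM or more in WT, 3 in Tam and 1 in DoxTam, with summed levels of 5.16, 10.5 and 7.39 FPKM and none at 0. *Cdx2*, the trophectoderm master gene, was at 0.639, 2.82 and 0.128 FPKM, *Gata3* at 0.098, 1.77 and 0.213 and *Eomes* at 2.91, 4.08 and 5.43. The 8 primitive endoderm markers summed to 37.6, 35.1 and 30.9 FPKM, nearly all of it *Lama1* (33.7, 31.4 and 27.2 FPKM), with none at 0. The 8 fibroblast markers summed to 6.76, 4.75 and 3.74 FPKM, with *Thy1* the highest (4.52, 2.27 and 2.63 FPKM) and 2, 1 and 3 of them at 0. The 5 macrophage markers summed to 9.22, 9.83 and 7.89 FPKM, nearly all of it *Cd68* (8.91, 8.88 and 7.47 FPKM), with 0, 0 and 1 at 0. The part of other cells in the results below was not tested.

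In WT the order of levels was *Pou5f1* (664 FPKM), *Sox2* (289), *Utf1* (181), *Spp1* (132), *Fgf4* (106) and *Fbxo15* (38.2). *Pou5f1* stood above 99.2% of the genes at 1 FPKM or more in this library and *Fbxo15* above 82.5%. In the library labelled Tam the order was *Pou5f1* (529 FPKM), *Sox2* (268), *Spp1* (219.8), *Fgf4* (90.9), *Utf1* (90.6) and *Fbxo15* (60.9). In the library labelled DoxTam it was *Pou5f1* (458 FPKM), *Sox2* (268), *Spp1* (136), *Fgf4* (90.4), *Utf1* (83.2) and *Fbxo15* (50.4). *Pou5f1* and *Sox2* led and *Fbxo15* was last in all 3 libraries, and *Utf1* moved from place 3 in WT to place 5 in both treated libraries. The highest level was 17.4 times the lowest in WT, 8.69 times in Tam and 9.09 times in DoxTam. There is no spread between replicates against which to judge neighbours in this order, and *Fgf4* and *Utf1* in Tam differed by less than 1 FPKM.

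**Figure D2:**
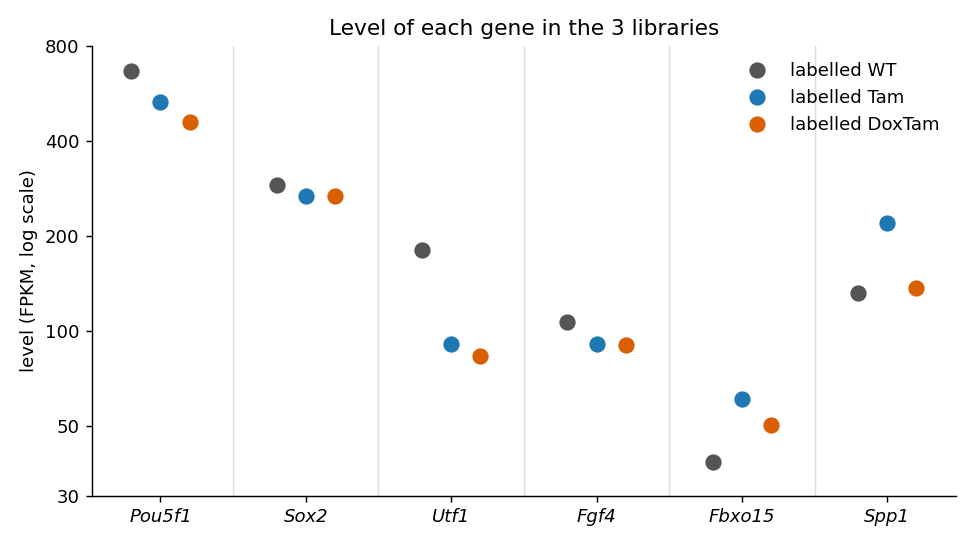
Level of each gene (y axis, FPKM, log scale) in the library labelled WT (grey), Tam (blue) and DoxTam (orange), 1 point per library with no error bars because each condition has 1 library. *Pou5f1* goes down from WT to Tam to DoxTam (664, 529 and 458 FPKM), *Utf1* is low in both treated libraries (90.6 and 83.2 FPKM against 181) and *Spp1* is high in Tam alone (219.8 FPKM against 132 and 136).

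*Pou5f1*, the gene whose enhancer was targeted, had 664 FPKM in WT, 529 in Tam and 458 in DoxTam. As deposited, the library given doxycycline therefore had the lowest level, although its transgene encodes mouse *Oct4* and transgene reads can count to *Pou5f1*. The level of the transgene apart from the native gene was not measured, and the names Tam and DoxTam stand throughout for the libraries labelled so. On the scale log2((FPKM + 1)/(FPKM + 1)), used for every fold here, *Pou5f1* was at -0.33 in Tam against WT, -0.54 in DoxTam against WT and -0.21 in DoxTam against Tam. The linear ratios were 0.797, 0.689 and 0.865. None reached 1.5-fold, the limit used for calling a gene higher or lower (0.58 on the log2 scale) among measured genes, which are those at 1 FPKM or more in either library compared. Of all 12384 genes measured in DoxTam against WT, 7.24% had a fold as low or lower. The levels rest on about 12000, 4500 and 4700 fragments, so that counting error alone is near 0.93%, 1.5% and 1.5%, smaller than any of these differences. Counting error says nothing of the spread between cultures. The fold of DoxTam against Tam was 0.01 after rescaling to the same sum and -0.09 with the GC trend removed.

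*Sox2*, the partner of *Oct4* in the complex, was at 289 FPKM in WT, 268 in Tam and 268 in DoxTam. The treated libraries were within 0.106 FPKM of each other. Its log2 folds were -0.11 for both treated libraries against WT, and both turned positive after rescaling to the same summed FPKM (0.04 and 0.25). Relative to *Pou5f1*, which no rescaling of a library can alter, *Sox2* was at 43.5% in WT, 50.5% in Tam and 58.5% in DoxTam. Removal of the GC trend does alter such a ratio. Without the trend the folds of DoxTam against WT were -0.27 for *Pou5f1* and -0.05 for *Sox2*, beside -0.54 and -0.11 as deposited. The shares of *Sox2* given below have the same limit.

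*Utf1* had the largest difference of the 6 genes. It was at 181 FPKM in WT, 90.6 in Tam and 83.2 in DoxTam, so both treated libraries were far under WT and near each other. The ratios to WT were 0.502 and 0.46, with log2 folds of -0.99 and -1.11. Of all genes measured, 0.756% had a fold as low or lower in Tam against WT and 0.767% in DoxTam against WT. DoxTam against Tam was -0.12, a value that turned positive (0.09) after rescaling to the same sum. As a share of *Sox2* in the same library, *Utf1* was at 62.5% in WT, 33.9% in Tam and 31.1% in DoxTam. The levels rest on about 2900, 700 and 780 fragments. *Utf1* was lower by 1.5-fold against WT in both libraries under every alternative of scaling, filter and pseudocount and with the GC trend removed (-0.71 in both).

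*Fgf4* was at 106 FPKM in WT, 90.9 in Tam and 90.4 in DoxTam. The treated libraries were at a ratio of 0.995 to each other, and both were under WT by about the same step, with a log2 fold of -0.23 in each. The fold of DoxTam turned positive (0.13) after rescaling to the same sum. Relative to *Sox2* the level was 36.8%, 34.0% and 33.8%, the narrowest range of the 4 targets. Of the 10 genes of FGF receptors and their adaptors, 8 were at 1 FPKM or more, and none reached 1.5-fold in any of the 3 comparisons as deposited. Their median log2 folds were -0.04, -0.07 and -0.01. *Fgfr1*, the main receptor of ESCs by level here, was at 11.5, 11.9 and 8.89 FPKM, and *Fgfr2* was under 1 FPKM in every library (0.513, 0.758 and 0.41). *Gab1*, a docking adaptor, was the most abundant at 76.9, 64.5 and 73.2 FPKM. After rescaling to the same sum 2 of the 8 were higher in DoxTam against WT, and on the housekeeping scale 1 of the 8 was lower in each treated library against WT.

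*Fbxo15*, known as a reporter locus of pluripotency, was at 38.2 FPKM in WT, 60.9 in Tam and 50.4 in DoxTam. Both treated libraries were above WT, and Tam was the highest. The log2 folds were 0.66 in Tam against WT, 0.39 in DoxTam against WT and -0.27 in DoxTam against Tam. In Tam against WT 5.41% of all genes had a fold as high or higher, and on the housekeeping scale *Fbxo15* was inside 1.5-fold there (0.34). The levels rest on about 710, 550 and 550 fragments, with a counting error near 3.7%, 4.3% and 4.2%. Its share of *Sox2* was 13.2%, 22.8% and 18.8%. The list for the SCF ligase held its core (*Skp1a*, *Cul1*, *Rbx1*) and *Nedd8*, which is not a core subunit. These genes had positive folds as deposited in both comparisons with WT, none past 1.5-fold, with medians of 0.34 and 0.35. *Skp1a*, the adaptor that holds the F-box, was the most abundant at 122, 153 and 145 FPKM. After rescaling to the same sum all 4 were higher in DoxTam against WT, and on the housekeeping scale the medians were 0.03 and 0.11. A protein-coding gene on the opposite strand, *1700034H14Rik*, overlaps *Fbxo15* in the annotation.

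*Spp1* was at 132 FPKM in WT, 219.8 in Tam and 136 in DoxTam. Tam stood apart, and DoxTam was 4.02 FPKM above WT. The log2 folds were 0.73 in Tam against WT, 0.04 in DoxTam against WT and -0.69 in DoxTam against Tam. In Tam against WT 4.24% of genes had a fold as high or higher, and in DoxTam against Tam 4.28% had a fold as low or lower. *Spp1* was inside 1.5-fold in Tam against WT on the housekeeping scale (0.41) and in DoxTam against Tam at the same sum (-0.47). The value of DoxTam against WT turned negative on the housekeeping scale (-0.19) and with the GC trend taken out (-0.21). As a share of *Sox2* the level was 45.8%, 82.2% and 50.9%. *Spp1* rests on about 2600, 2100 and 1600 fragments. Of 10 osteopontin receptor genes, 6 were measured in Tam against WT, of which 1 was lower and none higher, and 7 in DoxTam against WT, of which 1 was lower and none higher. The lower gene was *Itga5*, an integrin subunit, at 44.9 FPKM in WT, 28.1 in Tam and 27.5 in DoxTam (log2 folds -0.66 and -0.69). It was inside 1.5-fold after rescaling to the same sum (-0.51 and -0.34) and with the GC trend taken out (-0.51 and -0.42). *Itgb1*, the most abundant, was at 53.9, 52.2 and 60.8 FPKM, and *Cd44* was under 1 FPKM in all 3. *Itgb5* was at 15.1, 19.5 and 12.6 FPKM, with -0.59 in DoxTam against Tam as deposited and -0.39 to -0.54, inside 1.5-fold, under every rescaling and without the GC trend.

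**Figure D3:**
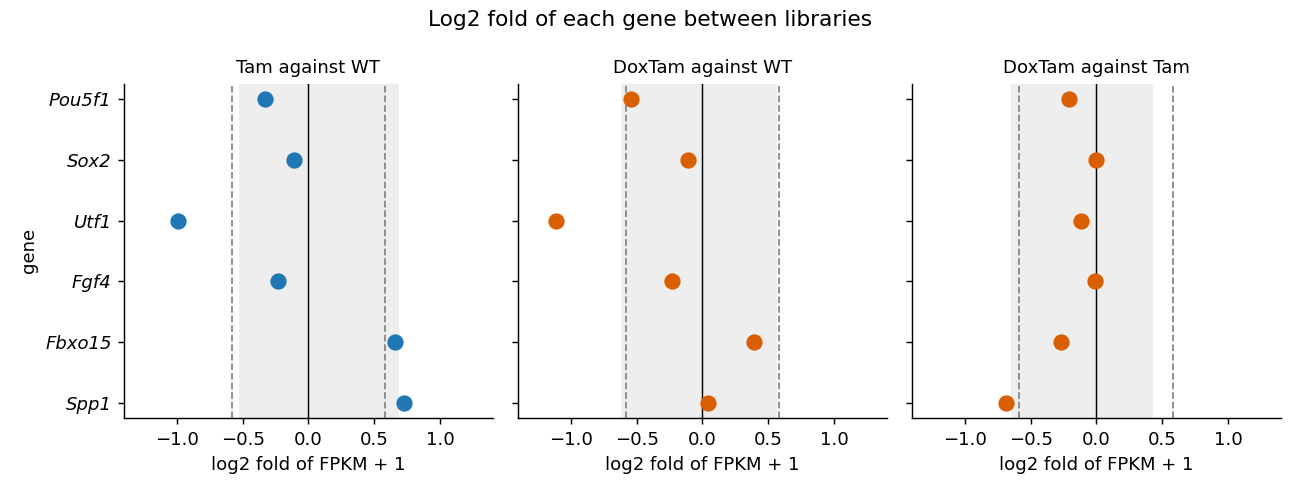
Log2 fold of FPKM + 1 of each gene (x axis) in 3 comparisons of 1 library with another. Dashed lines mark 1.5-fold, and the grey band holds the 5th to 95th percentile of all genes measured; *Utf1* lies left of the band in both comparisons with WT, *Spp1* lies right of it in Tam against WT and left of it in DoxTam against Tam, and *Sox2* and *Fgf4* lie near 0.

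Counted over the 6 genes, Tam against WT had 2 higher (*Fbxo15* and *Spp1*), 1 lower (*Utf1*) and 3 within 1.5-fold. Of the 12705 genes measured in this comparison 6.98% were higher and 3.59% lower. DoxTam against WT had none higher, 1 lower (*Utf1*) and 5 within, where 4.12% of the genes measured were higher and 5.78% lower. DoxTam against Tam had none higher, 1 lower (*Spp1*) and 5 within, beside 2.09% higher and 5.74% lower of 12647 genes. The median log2 fold of the 6 genes was -0.17 in each comparison, and the median of all genes was 0.02, 0.00 and -0.02. Counts over 6 genes are coarse beside these shares, and nothing is read from them about the list. The 3 comparisons share libraries, so their folds are not independent.

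The folds of the 6 genes against WT ran largely in the order of the GC content of their transcripts, as the medians of all genes did. Exceptions were *Spp1* in DoxTam (0.04), under *Fbxo15* (0.39), and *Fgf4* (-0.23), under *Sox2* (-0.11) in both treated libraries. The cause was not tested. *Spp1* (43.3% GC) and *Fbxo15* (44.7%) had the lowest GC content and were the genes higher in Tam. *Fgf4* (50.8%) and *Sox2* (52.1%) were between, *Pou5f1* was at 57.5%, and *Utf1* had the highest (63.6%, above 99.1% of the genes measured) and the lowest folds. Genes were put in 10 groups of 1095 by GC content. In the group of *Utf1* the median log2 fold was -0.20 in Tam and -0.34 in DoxTam, and 1.37% and 0.913% of its genes had a fold as low as *Utf1*. In the group of *Pou5f1* the medians were -0.16 and -0.27, and 27.8% and 16.6% of its genes were as low. In the group of *Fbxo15* the medians were 0.11 and 0.16, and 2.83% and 16.1% of its genes were as high. For *Spp1* the group medians were 0.14 and 0.25, 2.19% of its genes were as high in Tam, and 21.4% were as low in DoxTam. After removal of the GC trend with lowess the log2 folds in Tam were -0.18 for *Pou5f1*, -0.08 for *Sox2*, -0.71 for *Utf1*, -0.22 for *Fgf4*, 0.54 for *Fbxo15* and 0.58 for *Spp1*. *Fbxo15* and *Spp1* were then inside 1.5-fold, the latter at its edge. In DoxTam the folds without the trend were -0.27, -0.05, -0.71, -0.21, 0.19 and -0.21 in the same order. The fold of DoxTam against Tam of *Spp1* was -0.78 without the trend, as large as before.

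**Figure D4:**
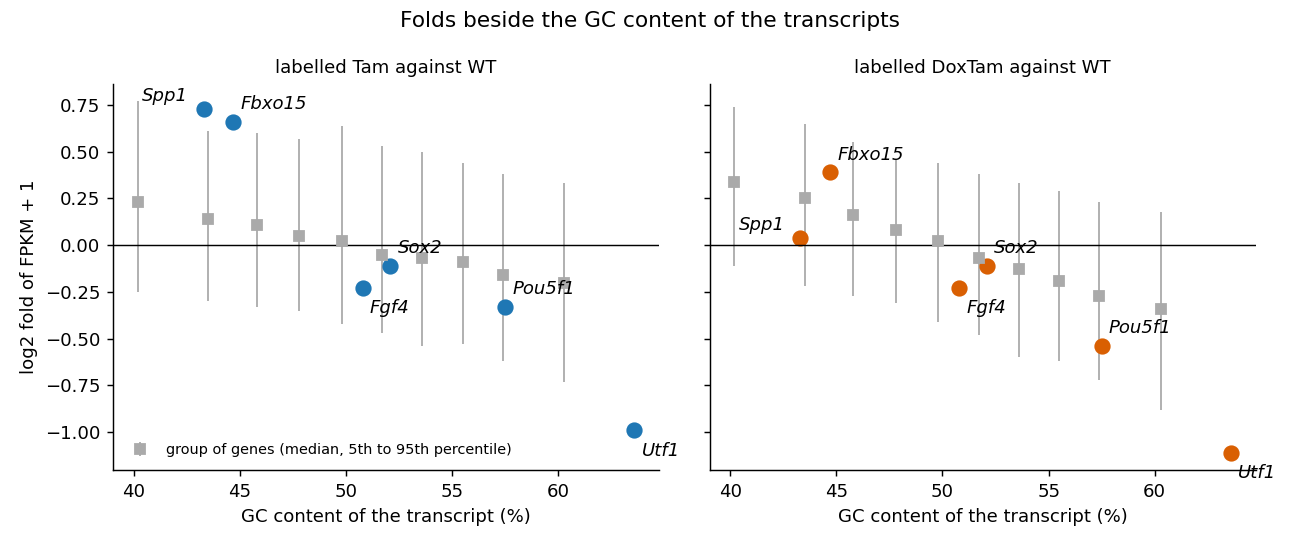
Log2 fold against WT (y axis, FPKM + 1) beside transcript GC content (x axis, %), with Tam on the left and DoxTam on the right. Grey squares with bars are 10 groups of 1095 genes with their median and 5th to 95th percentile, and coloured points are the 6 genes; *Utf1* lies below the bar of the group with the highest GC content in both panels, and *Spp1* and *Fbxo15* lie above their groups' bars in Tam.

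Other genes of the same network were read from lists that hold none of the 6 genes. Of 12 further joint targets, all were measured and none reached 1.5-fold in Tam against WT as deposited, with a median of -0.01. On the housekeeping scale 2 of them were lower there, with a median of -0.33. In DoxTam against WT 1 was higher, *Lefty1*, an inhibitor of NODAL signalling, at 4.37 FPKM in WT, 4.72 in Tam and 8.0 in DoxTam (log2 fold 0.75). In DoxTam against Tam 2 were higher, *Lefty1* (0.65) and *Nr0b1* (0.60), an orphan nuclear receptor gene, which was at 35.7, 28.8 and 44.2 FPKM. *Tdgf1*, the NODAL co-receptor gene and the most abundant of the list, was at 429, 457 and 600 FPKM, within 1.5-fold. The number higher in DoxTam against WT went from 1 to 5 after rescaling to the same sum and to 0 on the housekeeping scale. Of 7 genes of OCT4 and SOX2 protein partners, none reached 1.5-fold against WT as deposited. On other scales *Nr0b1* did, at -0.61 in Tam on the housekeeping scale and 0.66 in DoxTam at the same sum. *Rad23b*, a subunit of the XPC complex that acts as a coactivator of the pair, was the most abundant at 121, 108 and 124 FPKM, and *Nr0b1* was again the 1 higher in DoxTam against Tam.

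Of 14 other POU genes, 8 were measured against WT. *Pou2f1*, the ubiquitous octamer factor OCT1, was the most abundant at 16.4, 19.9 and 21.4 FPKM, far under *Pou5f1*. In Tam against WT 1 was higher, *Pou5f2* (0.533 and 1.51 FPKM, log2 fold 0.71), and 1 lower, *Pou2f3* (4.49 and 2.65 FPKM, -0.59). *Pou5f2* was inside 1.5-fold on the housekeeping scale (0.53), and *Pou2f3* at the same sum (-0.48) and without the GC trend (-0.57). In DoxTam against WT 1 was higher, *Pou4f2* (2.66 and 4.62 FPKM, 0.62), and 2 were lower, *Pou2f2* (2.11 and 0.695 FPKM, -0.87) and *Pou2f3* (2.46 FPKM in DoxTam, -0.67). Each of these was inside 1.5-fold under an alternative, *Pou4f2* on the housekeeping scale (0.42), *Pou2f2* without the GC trend (-0.54) and *Pou2f3* at the same sum (-0.40). *Pou5f2* in WT (0.533 FPKM) and *Pou2f2* in DoxTam (0.695 FPKM) were under 1 FPKM, where few fragments are counted and folds are less sure. Of 19 other SOX genes, 6 were measured, and *Sox12*, a SOXC gene, was the most abundant in WT at 14.9 FPKM. It was lower in both treated libraries as deposited (9.03 and 7.60 FPKM, log2 folds -0.67 and -0.89), as was *Sox13* (6.11, 3.61 and 3.65 FPKM, -0.62 and -0.61). Both were inside 1.5-fold in both comparisons after removal of the GC trend, *Sox12* at -0.49 and -0.57 and *Sox13* at -0.42 and -0.26. *Sox21* was at 13.6 FPKM in WT, 20.7 in Tam and 10.2 in DoxTam, lower in DoxTam against Tam (-0.95) under each scaling and without the GC trend (-0.82). In Tam against WT *Sox21* was inside 1.5-fold as deposited (0.57) and on the housekeeping scale (0.27). It was past that limit at the same sum (0.71) and without the GC trend (0.73). Median folds of the 6 SOX genes were -0.24 and -0.34 against WT, and after rescaling to the same sum they were -0.12 and 0.00 over the same 6 genes.

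**Figure D5:**
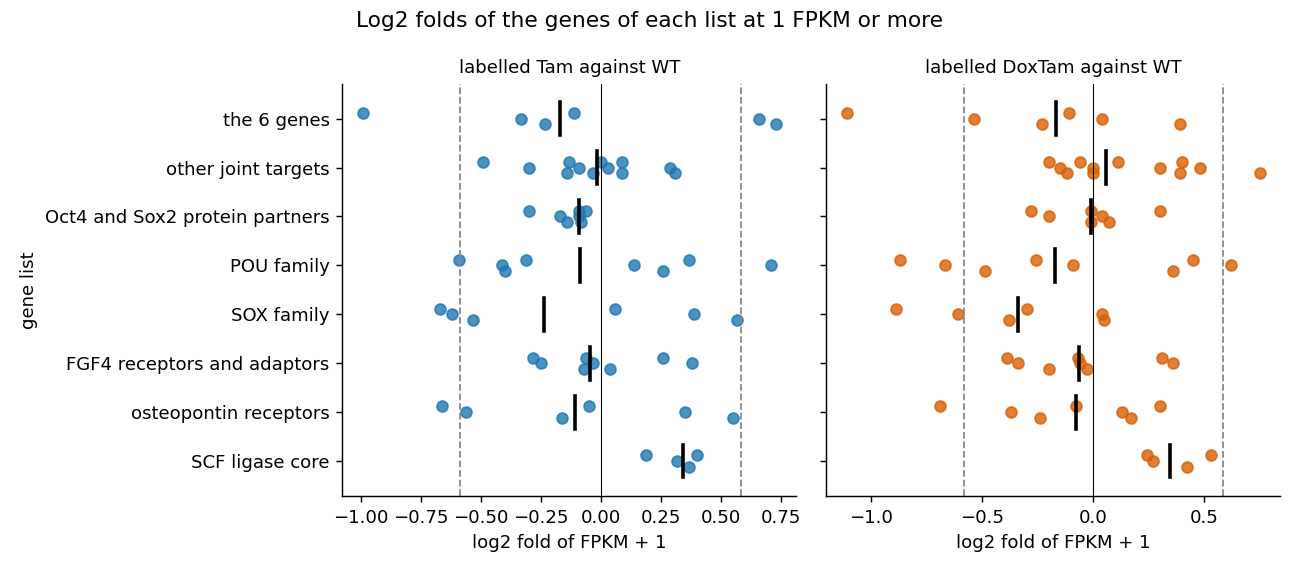
Log2 fold against WT (x axis, FPKM + 1) of the measured genes of each list, for Tam (left) and DoxTam (right), with 1 point per gene, black bars at the median and dashed lines at 1.5-fold. As deposited the 6 genes have the widest spread of these lists in Tam, from -0.99 to 0.73, while the 12 other joint targets all lie within 1.5-fold there. Without the GC trend the 6 genes run from -0.71 to 0.58 in Tam and the SOX genes from -0.52 to 0.73. The genes and lists were chosen with earlier results known, so nothing is read from the spread.

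The genes whose 2 folds against WT were most like those of each gene were named by the distance between the pairs of folds, over 3 libraries and among genes whose WT level was within 4-fold. For *Pou5f1* they were *Akap12* (distance 0.032 on the log2 scale; 288, 224 and 197 FPKM), *Rps4l* and *Hist1h3c*, out of 304 genes. For *Sox2* they were *Hdlbp* (0.0062; 75.2, 69.2 and 69.5 FPKM), *Polr2m* and *Mcm7*, out of 902. For *Utf1* they were *Dusp9* (0.14; 111, 51.2 and 53.7 FPKM), *Ier2* and *Prrc2a*, out of 1566. The nearest genes of *Utf1* and *Spp1* were farther away than those of the other 4 genes. For *Fgf4* they were *Siva1* (0.0036; 94.3, 80.6 and 80.3 FPKM), *Cpsf4* and *Dctn2*, out of 2760. For *Fbxo15* they were *Insig1* (0.0076; 11.4, 18.5 and 15.1 FPKM), *Sdcbp* and *Chmp4c*, out of 5865, and for *Spp1* *Eif2b5* (0.10; 113, 184 and 109 FPKM), *Ndufa3* and *Atp1b3*, out of 2204. None of these 18 genes belongs to the lists of joint targets or partners. Those lists hold 12 and 7 genes beside 304 to 5865 candidates, so nothing is read from this.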

How the data were processed

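RNA-seq of 3 libraries (WT, Tam and DoxTam, 1 per condition) was used. The authors deposited 2 tables, each with FPKM values of 1 treated library and WT, made with TopHat, Bowtie and Cufflinks 2.0.0 on mm9 by the submitters' processing notes. The tables also hold the authors' log2 fold, test statistic, p-value, q-value and mark of significance, none of which was used. No column was left without a library. Names differed between the tables for 27 genes, and those of the Tam table were taken. WT levels differed by over 1% for 2 genes.

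FPKM were compared as deposited, with a pseudocount of 1 FPKM, among genes that reach 1 FPKM in either library compared, and a gene was called at 1.5-fold. Depth was estimated from 1-transcript genes over 1 kb and is approximate. Fragment numbers cover counting error only. GC content came from the longest coding transcript of the GENCODE annotation of mm9 (NCBIM37), with a value for 88.9% of genes measured, and the trend was removed with lowess (span 0.2, statsmodels 0.14.6). Guides came from the study's supplement. The steps were tested on simulated data. Named genes are the 6 genes, up to 4 per list that reached 1.5-fold (2 highest, 2 lowest) with the most abundant in WT, the 3 nearest in fold to each gene (5 FPKM or more in WT, without unnamed models and small RNA genes) and overlapping genes. *Fgfr1*, *Fgfr2*, *Cd44*, *Cul1*, *Rbx1*, *Nedd8* and *Hprt* are named beside that rule, after their values were seen. The members and lists were chosen with earlier results of these data known.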

Additional observations from a re-analysis of the deposited data

How the results depend on the processing

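No paired analysis was possible because each condition had 1 library, and no library could be left out. The folds of the 6 genes were recomputed under 10 alternatives, and none of their called folds changed sign. Genes of the other lists were recomputed under the rescalings and without the GC trend only. *Tfcp2l1* and *Pou5f2* had no GC value, so their folds without the trend are lacking. Rescaling to the same summed FPKM, a sum that holds the small RNA gene *Mir6236* at 43.1% in WT, 35.3% in Tam and 27.4% in DoxTam, shifted the median of all genes to 0.15, 0.32 and 0.17 in Tam against WT, DoxTam against WT and DoxTam against Tam. The medians of the 6 genes were then -0.02, 0.19 and 0.05. DoxTam against WT had 2 genes past 1.5-fold, with *Fbxo15* at 0.74, and DoxTam against Tam had 0, with *Spp1* at -0.47. Without small RNA genes in the sum no call of the 6 genes changed. On the median level of 9 housekeeping genes all genes shifted to -0.26 and -0.21 against WT, the 6 genes to -0.49 and -0.41. The 9 include *Hprt*, at 0.415 FPKM in WT, 0.127 in Tam and 0.338 in DoxTam, and a scale without it was not computed. The middle gene of the 9 was not the same in WT as in the treated libraries. The 8 housekeeping genes measured had medians of -0.24 and -0.23 on this scale, against 0.07 and 0.01 as deposited. So the scale lowered the folds of the genes it was meant to hold level. On it *Pou5f1* was lower in both (-0.65 and -0.77). *Fbxo15* (0.34) and *Spp1* (0.41) were inside 1.5-fold in Tam against WT, and 2 genes were past it in DoxTam against WT. With the GC trend removed 1 gene was past 1.5-fold in Tam against WT, with *Fbxo15* at 0.54 and *Spp1* at 0.58, and the median in DoxTam against Tam was -0.04. At 2-fold *Utf1* (-0.99), *Fbxo15* (0.66) and *Spp1* (0.73 in Tam against WT, -0.69 in DoxTam against Tam) were no longer called, which left 0 genes in both comparisons. Within 2 kb of the start 2 genes kept a composite motif, a share of 9.56% over all starts, and with the last base of the POU motif free all 6 had a match within 5 kb. No call of the 6 genes changed with a pseudocount of 0.1 FPKM or 5 FPKM, without a filter, with genes at 5 FPKM or more, or with centring.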

Other observations

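Of 9 housekeeping genes 8 were measured, and as deposited none reached 1.5-fold in any comparison, with median log2 folds of 0.07, 0.01 and -0.12. After rescaling to the same sum 1, 2 and 1 were higher, with medians of 0.21, 0.36 and 0.09. *Actb*, the most abundant, was at 1230.0 FPKM in WT, 1400.0 in Tam and 1200.0 in DoxTam. The gene not measured was *Hprt*, at 0.415, 0.127 and 0.338 FPKM. The low level was shared by all 3 libraries, and its cause was not tested.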
